A study of Mus musculus with 42 samples.

Results

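The opioid system of the hypothalamus is described here through 7 genes, 3 that encode the precursors of opioid peptides (Pdyn, Penk and Pnoc) and 4 that encode opioid receptors (Oprm1, Oprd1, Oprk1 and Oprl1). The genes were chosen as a family, with earlier results of these data known, and they are 7 of the 37907 genes in the expression table. All 7 passed the filter on low values, which 33579 genes passed in all. The table gives a gene without reads a value that is higher the shorter the gene, so some short genes without reads also passed. The shares of all genes given below include them, and a gene without reads in any library cannot be called. The RNA came from wild-type male C57/BL6 mice, all adult, given food freely or deprived of it for 24 hours before the brain was removed. Laser-capture microdissection, in which a laser excises a region of a stained section, was used to collect the arcuate nucleus (ARC), the ventromedial nucleus (VMH), the dorsomedial nucleus (DMH) and the paraventricular nucleus (PVN). The 42 libraries comprised 5 fed and 5 fasted ARC, 6 fed and 6 fasted VMH, 5 fed and 4 fasted DMH, and 6 fed and 5 fasted PVN libraries. Expression is given as RPKM, read counts scaled to the length of the gene and to the number of mapped reads. The deposited values also hold an added count and had batch means removed. The added count gives more RPKM to shorter genes, so low levels can be compared between genes only roughly.

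Opioid peptides are cut from larger precursor proteins inside secretory vesicles. Pdyn encodes prodynorphin, the source of the dynorphins, which bind mainly the kappa receptor encoded by Oprk1. Penk encodes proenkephalin, the source of the enkephalins, which bind the delta receptor encoded by Oprd1 and the mu receptor encoded by Oprm1. Pnoc encodes prepronociceptin, the source of nociceptin, whose receptor, encoded by Oprl1, resembles the opioid receptors but binds the classical opioid peptides poorly. All of these receptors couple to inhibitory G proteins, which lower cyclic AMP, open potassium channels and close calcium channels, and in the hypothalamus they are known for effects on feeding, hormone release and stress responses.

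The 3 precursors share a peptide core that makes each an opioid or opioid-like gene, and the stretch that encodes it is shown for one peptide of each. The sequences are from GENCODE transcripts on GRCm38, each has 51 bases of coding sequence, and capitals mark the 12 bases that encode the first 4 residues of the peptide. In dynorphin A and Met-enkephalin these residues are tyrosine, glycine, glycine and phenylalanine, whereas nociceptin begins with phenylalanine in place of tyrosine.
Pdyn, dynorphin A (chr2:129688094-129688144, minus strand, exon 4 of 4): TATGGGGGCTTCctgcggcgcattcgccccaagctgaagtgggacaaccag
Penk, first copy of Met-enkephalin (chr4:4134298-4134348, minus strand, exon 2 of 2): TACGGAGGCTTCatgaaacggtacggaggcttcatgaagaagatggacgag
Pnoc, nociceptin (chr14:65404842-65404892, minus strand, exon 3 of 4): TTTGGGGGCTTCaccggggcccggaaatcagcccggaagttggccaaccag
The tyrosine form of the core occurs 7 times among the 268 residues that the Penk transcript encodes, followed by methionine in 6 copies and by leucine in 1. It occurs 3 times among the 248 residues encoded by Pdyn, each time followed by leucine, and 0 times among the 187 residues encoded by Pnoc, which holds the phenylalanine form 1 time. The stretch of Penk shown contains a further copy of the core, in lower case, after the first.

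The 4 nuclei could be told apart by their defining transcripts. Each of the 16 nucleus markers with a value had its highest fed mean in the nucleus it marks, 5 of 5 for the ARC (Agrp and Pomc among them), 3 of 3 for the VMH, 3 of 3 for the DMH and 5 of 5 for the PVN (Oxt, Avp, Crh, Trh and Sim1). The DMH libraries also held transcripts of the neighbouring lateral hypothalamus, with Hcrt and Pmch summing to between 269 and 1450 RPKM in fed and between 401 and 631 RPKM in fasted DMH. Hcrt marks orexin neurons, which are also known to make dynorphin, and their part in the DMH level of Pdyn was not tested. Depth, estimated from the added count, averaged 4.57 M reads per library (M standing for 10 to the power of 6, range 1.33 to 13.25 M). It is not the number of reads sequenced, for which the paper gives a higher average over a larger set of libraries. Estimated depth was uneven in the DMH, at 3.91 ± 0.862 M in fed (SD, n = 5) against 7.38 ± 4.0 M in fasted libraries (SD, n = 4). Even so, the deepest fed library (5.05 M) exceeded the shallowest fasted one (4.78 M).

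The 7 genes spanned a wide range of expression (see the plot of estimated reads). Penk and Pdyn were the highest, with medians of 63.5 and 50.4 RPKM over the 42 libraries, followed by Oprl1 at 23.9 and Oprk1 at 9.54 RPKM. Oprm1, Pnoc and Oprd1 were lowest, with medians of 4.36, 2.59 and 2.42 RPKM. The range within each gene differed as much as the level. The highest library held 2.07 times the RPKM of the lowest for Pdyn and 9.29 times for Penk, but 24.2 times for Pnoc.

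**Figure D1:**
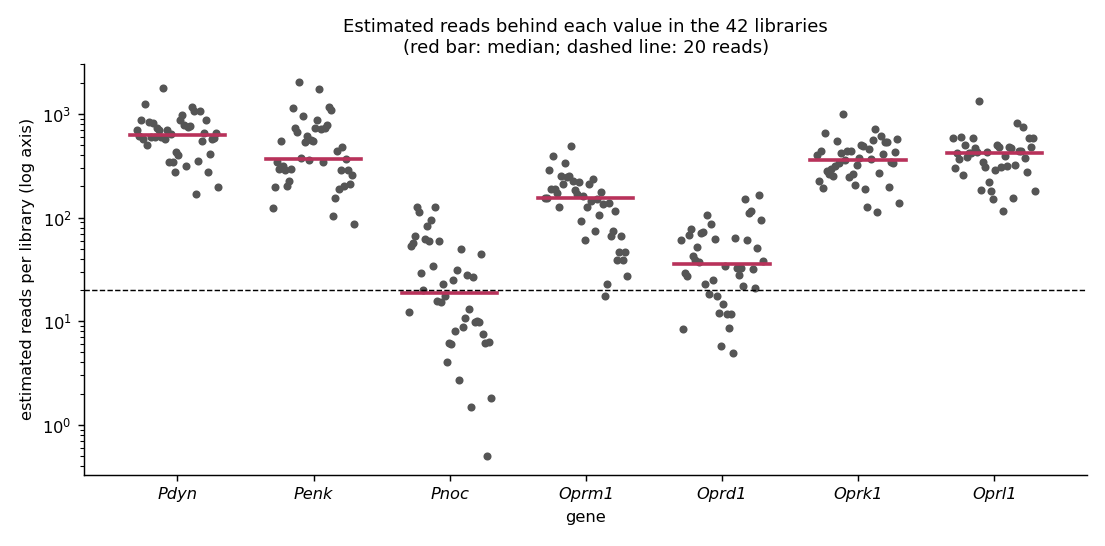
Estimated reads per library (log axis) behind the values of the 7 genes, 1 point per library (n = 42), with the median as a red bar and 20 reads as a dashed line. Pdyn, Penk, Oprk1 and Oprl1 lie above the line in every library, whereas 22 Pnoc, 10 Oprd1 and 1 Oprm1 libraries lie below it.

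The number of reads behind these values decides how closely they can be read. The medians were an estimated 622 reads for Pdyn, 417 for Oprl1, 370 for Penk, 362 for Oprk1 and 153 for Oprm1, but 35.8 for Oprd1 and 18.7 for Pnoc. Pnoc was estimated at under 20 reads in 22 libraries and lay under 2 times the value that the table gives to a gene with no reads (0.508 RPKM for Pnoc) in 2 of them. Differences in Pnoc and Oprd1 are therefore less certain than those in the other 5 genes.

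Fasting was compared with feeding within each nucleus by limma on log2(RPKM + 1), fitted over all genes with Benjamini-Hochberg adjustment and a call at an adjusted p under 0.1. Of the 28 tests of the 7 genes, 1 passed. Pdyn fell in the PVN of fasted mice, and none of the other 27 tests passed (lowest adjusted p = 0.835). In the PVN 1 of 7 genes was called, beside 0.0715% of all genes, and in the ARC, VMH and DMH 0 of 7 were called, beside 0.0566%, 0.131% and 0.0238% of all genes. At an unadjusted p under 0.05 the limma fit gave the same counts, 0 of 7 in the ARC, VMH and DMH and 1 of 7 in the PVN. Of all genes 7.5%, 7.31%, 6.48% and 5.53% reached that p in the ARC, VMH, DMH and PVN.

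**Figure D2:**
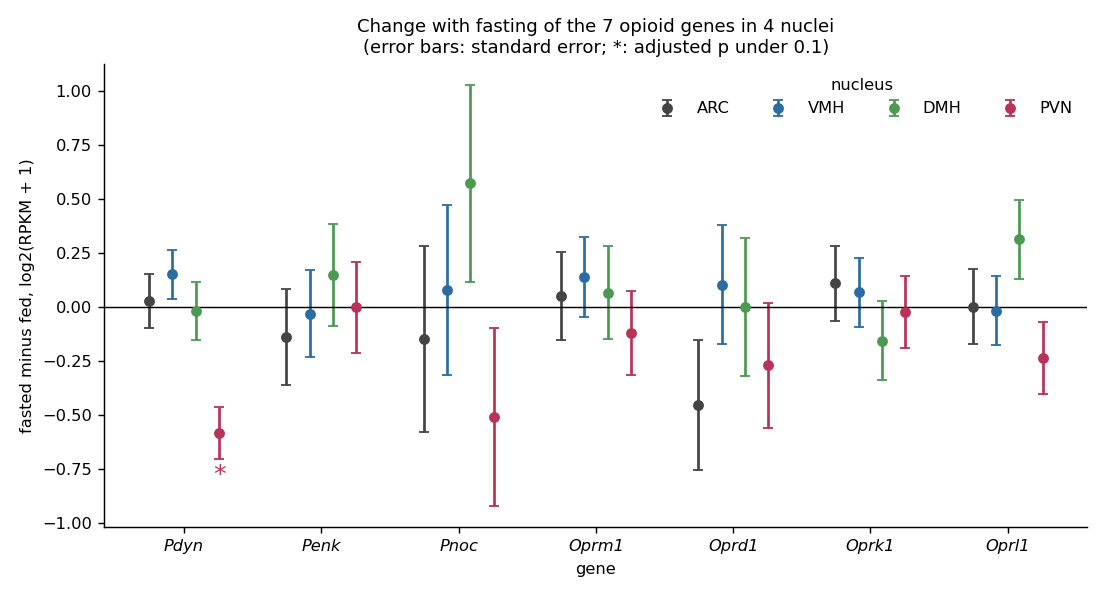
Fasted minus fed difference of each gene in each nucleus, on the log2(RPKM + 1) scale, with its standard error as a bar (4 to 6 libraries per group). Pdyn in the PVN, at -0.58, is the only value marked with an asterisk for an adjusted p under 0.1, and the widest bars belong to Pnoc.

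Pdyn (ENSMUSG00000027400, chr2:129686565-129699844, minus strand) varied little between the nuclei of fed mice, with group means from 46.0 to 60.4 RPKM, and fell in the PVN with fasting. The 6 fed PVN libraries lay between 57.8 and 64.6 RPKM with a median of 59.7 RPKM, the tightest of the 56 combinations of gene and group with a coefficient of variation of 4.6%. The 5 fasted PVN libraries held 32.7, 38.5, 31.9, 49.2 and 51.4 RPKM. Every fasted library was below every fed library, a pattern shared with 0.182% of all genes in this comparison.

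The mean fell from 60.4 ± 2.78 (SD, n = 6) to 40.7 ± 9.10 RPKM (SD, n = 5), a change of -32.5%. On the log2 scale the change was -0.58 (SE 0.12, limma adjusted p = 0.0573), and a two-sided exact permutation test gave p = 0.00433, the smallest that 6 against 5 libraries allow. In bulk tissue, fewer cells that express a gene and less RNA per cell cannot be told apart. The direction was the same in each of the 3 batches recovered from the values, at -0.86, -0.71 and -0.32 on the log2 scale, with 1 or 2 libraries of each state per batch. The call was lost when the PVN was fitted on its own libraries (adjusted p = 0.646) and in 7 of the 11 fits that left out 1 PVN library, those without PVN-Fast 1, 2 or 3 or without PVN-Fed 1, 4, 5 or 6, with changes between -0.67 and -0.50 and adjusted p between 0.013 and 0.239 over the 11.

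Transcripts of the peptides that mark PVN neurons were measured in the same libraries. Avp, which encodes vasopressin and is made with dynorphin in magnocellular neurons, had means of 2110 ± 678 in fed (SD, n = 6) and 1780 ± 395 RPKM in fasted PVN (SD, n = 5), with a log2 difference of -0.22 (SE 0.34, adjusted p = 1.0). Oxt, which encodes oxytocin, had means of 4070 ± 955 and 4340 ± 774 RPKM (0.11, SE 0.45). Neither Crh (19.8 ± 3.03 and 22.3 ± 2.49 RPKM) nor Trh (128 ± 56.4 and 105 ± 29.3 RPKM), the releasing hormones of the stress and thyroid axes, passed the test, so that none of these 4 peptides showed a called difference beside that of Pdyn.

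The summed PVN markers ranged from 4620 to 8700 RPKM in fed and from 4700 to 7180 RPKM in fasted libraries. The 4 neuronal markers (Snap25, Syt1, Rbfox3 and Tubb3) summed to between 522 and 668 RPKM in fed and between 529 and 624 RPKM in fasted PVN. The 4 astrocyte markers summed to between 67.8 and 95.6 RPKM in fed and between 66.0 and 81.1 RPKM in fasted PVN, with a median log2 difference of -0.49, and those of oligodendrocytes, microglia and endothelial cells had medians of -0.12, -0.29 and -0.10. In the PVN 0 markers of these lists were called by limma. Of the 3 markers of the neighbouring DMH, 1 was called there. Ppp1r17 rose from 18.9 ± 5.79 RPKM in fed (12.3 to 28.0, n = 6) to 47.3 ± 13.5 RPKM in fasted PVN (33.9 to 68.5, n = 5), without overlap (log2 change 1.28, SE 0.25, adjusted p = 0.0345). The other DMH markers were low in both states, Npvf at 1.82 ± 0.776 and 1.43 ± 0.64 RPKM and Gpr50 at 1.17 ± 0.934 and 1.25 ± 0.695 RPKM. All 3 summed to between 14.2 and 31.4 RPKM in fed and between 37.0 and 70.7 RPKM in fasted PVN, beside 159 to 252 RPKM in fed DMH, and the ARC markers to between 30.0 and 82.0 RPKM in fed and between 41.2 and 104 RPKM in fasted PVN. Among the fits without 1 library, the limma adjusted p of Pdyn was highest, at 0.239, without PVN-Fast 1. That library had the highest sum of ARC markers of the 5 fasted ones, at 104 against 41.2 to 49.3 RPKM. Its sum of PVN markers was the lowest of the 5, at 4700 against 6140 to 7180 RPKM. The part of these markers in the Pdyn result was not tested. Estimated depth was 4.59 ± 1.57 M in fed and 4.80 ± 1.55 M in fasted PVN (SD).

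**Figure D3:**
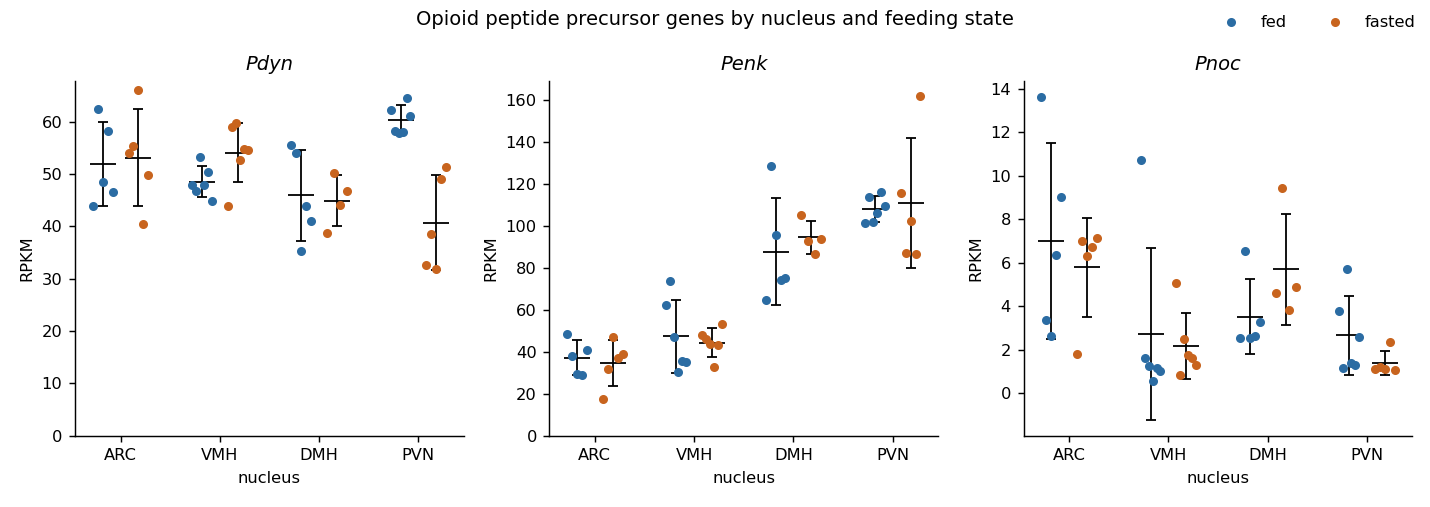
RPKM of the 3 precursor genes in each library of the 4 nuclei, fed in blue and fasted in orange, with the group mean and SD in black (4 to 6 libraries per group, linear axes). The 5 fasted PVN libraries of Pdyn sit between 31.9 and 51.4 RPKM, below the 6 fed ones. Penk is higher in the DMH and PVN than in the ARC and VMH. The wide SD of Pnoc is set by 1 high library in the fed VMH, whereas in the fed ARC the libraries are spread out.

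Outside the PVN, Pdyn showed no called difference with fasting. The 5 fed ARC libraries held 44.0, 62.5, 48.5, 58.3 and 46.5 RPKM, and the 5 fasted ones 54.0, 55.3, 66.1, 40.5 and 49.9 RPKM, overlapping throughout (0.03, SE 0.13). In the VMH the libraries ranged from 44.8 to 53.3 RPKM in fed (median 47.9) and from 43.9 to 59.8 RPKM in fasted mice (median 54.6), a difference of 0.15 (SE 0.12, adjusted p = 0.835). The DMH means were 46.0 ± 8.69 (SD, n = 5) and 45.0 ± 4.84 RPKM (SD, n = 4). The interaction of nucleus and feeding state was tested with the F test of limma, which gave an adjusted p of 0.539 for Pdyn (0.000633 before adjustment), so a difference between the PVN and the other nuclei was not established. Of the 7 genes 0 passed this test, beside 0.00596% of all genes. Before adjustment Pdyn alone of the 7 was under 0.05, beside 4.39% of all genes.

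The order of the nuclei for Pdyn differed between the feeding states. In fed mice it was PVN, ARC, VMH and DMH, and in fasted mice VMH, ARC, DMH and PVN. No 2 neighbours in either order differed at an adjusted p under 0.1. In fed mice the PVN exceeded the DMH (log2 difference 0.40, SE 0.12, adjusted p = 0.0696), and in fasted mice the VMH exceeded the PVN (0.42, SE 0.12, adjusted p = 0.0233). The first of these calls was lost in 6 of the 11 fits without 1 library (DMH-Fed 3, 4 or 5 or PVN-Fed 1, 5 or 6) and the second in 2 of 11 (PVN-Fast 1 or 3).

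Across nuclei the levels were compared with an F test within each feeding state. In all, 6 of the 7 genes (all but Pnoc) passed in fed mice, where 12.4% of all genes passed, and 7 of 7 passed in fasted mice, where 11.9% did. The adjusted p of those that passed ran from 8.88e-07 for Penk to 0.0968 for Pdyn in fed mice and from 3.02e-07 for Penk to 0.0808 for Oprk1 in fasted mice. The fed call of Pdyn was lost in 16 of 22 fits without 1 library (adjusted p up to 0.198), all but those without ARC-Fed 1, 2 or 4, DMH-Fed 1 or 2 or VMH-Fed 3, and its fasted call in 3 of 20, those without PVN-Fast 1, 2 or 3. The pairs of nuclei were then compared gene by gene, and 14 of 42 pairs passed in fed and 14 of 42 in fasted mice. In fed mice the share of all genes that passed was 7.9% for ARC against VMH, 2.79% for ARC against DMH, 4.13% for ARC against PVN, 5.24% for VMH against DMH, 9.84% for VMH against PVN and 3.42% for DMH against PVN. In fasted mice the same pairs gave 8.91%, 3.21%, 4.19%, 3.94%, 9.24% and 3.0%. By the study's methods all 4 nuclei were captured from the serial sections of a brain, so that libraries of different nuclei share mice. The labels do not tie libraries to mice, and these tests treated the libraries as independent. The 4 neuronal markers summed to between 912 and 1060 RPKM in the fed VMH. In the fed ARC, DMH and PVN they summed to 424 to 479, 494 to 578 and 522 to 668 RPKM. The 4 oligodendrocyte markers also had their highest sums in the fed VMH, at 160 to 244 RPKM, against 54.4 to 84.6, 73.8 to 127 and 51.2 to 84.3 RPKM. The part of these markers in the differences between nuclei was not tested.

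**Figure D4:**
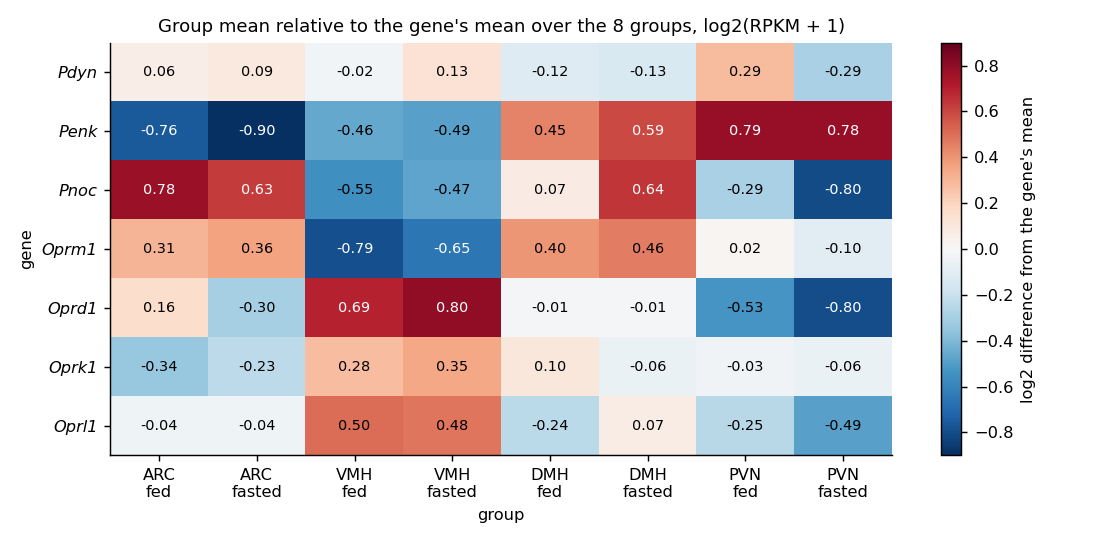
Mean log2(RPKM + 1) of each gene in each of the 8 groups, as the difference from that gene's mean over the 8 groups (red above, blue below). Penk runs from -0.90 in the fasted ARC to 0.79 in the fed PVN, Oprm1 is lowest in both VMH groups, and Oprd1, Oprk1 and Oprl1 are highest in both VMH groups.

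Penk (ENSMUSG00000045573, chr4:4133531-4138819, minus strand) was higher in the PVN and DMH than in the VMH and ARC. The 6 fed PVN libraries ranged from 101 to 116 RPKM (median 108), and the 5 fed DMH libraries held 64.8, 128, 95.7, 74.2 and 75.3 RPKM. The 6 fed VMH libraries ranged from 30.5 to 73.6 RPKM (median 41.3), and the 5 fed ARC libraries held 48.7, 37.8, 29.2, 28.8 and 40.8 RPKM. All fed PVN libraries were thus above all fed VMH and ARC libraries, and 1 VMH library overlapped the DMH.

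The fed PVN mean of 108 ± 6.06 RPKM (SD, n = 6) was 2.91 times the ARC mean of 37.1 ± 8.35 RPKM (SD, n = 5), a log2 difference of 1.54 (SE 0.21, adjusted p = 3.3e-06). The same comparison in fasted mice gave 111 ± 31.0 against 34.5 ± 11 RPKM (both n = 5), a log2 difference of 1.68 (SE 0.22, adjusted p = 1.69e-06). The order PVN, DMH, VMH and ARC was the same in both states. The step from DMH to VMH passed in fed mice (0.91, SE 0.21, adjusted p = 0.00666) and in fasted mice (1.08, SE 0.23, adjusted p = 0.00247), whereas the steps from PVN to DMH and from VMH to ARC did not (lowest adjusted p of the 4 = 0.345).

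Penk did not pass the fasting test in any nucleus, with log2 differences of -0.14 (ARC), -0.03 (VMH), 0.15 (DMH) and -0.003 (PVN) at an SE of 0.20 to 0.24. The 5 fasted PVN libraries held 116, 87.2, 102, 86.4 and 162 RPKM, which spread on both sides of the fed range. Exons of Penk overlap those of A830012C17Rik over 14.3% of their length, and 8.6% of its 50-base stretches occur elsewhere, so some reads may have been shared in an assay that does not keep strand.

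Pnoc (ENSMUSG00000045731, chr14:65400673-65425472, minus strand) was the most variable member. The 5 fed ARC libraries held 13.6, 3.37, 2.63, 6.37 and 9.05 RPKM and the 5 fasted ones 1.79, 7.02, 6.32, 6.73 and 7.12 RPKM. The 5 fed DMH libraries held 2.56, 6.55, 2.56, 2.63 and 3.28 RPKM and the 4 fasted ones 4.64, 9.46, 3.84 and 4.90 RPKM. VMH and PVN were lower, with medians of 1.20 and 2.01 RPKM in fed mice, close to the range in which a few reads decide the value.

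In fasted mice Pnoc differed between nuclei (F test, adjusted p = 0.0278), with the ARC at 4.17 times the PVN (5.80 ± 2.26 against 1.39 ± 0.555 RPKM, both n = 5, adjusted p = 0.0586), though that pair lost its call in 8 of 10 fits without 1 library, all but those without ARC-Fast 1 or PVN-Fast 4. In fed mice the F test did not pass (adjusted p = 0.127). One VMH library, VMH-Fed 1 at 10.7 RPKM, lay far above the other 5 fed VMH libraries (0.564 to 1.64 RPKM), and without it the F test passed (adjusted p = 0.00526). That library also had the highest sum of ARC markers of the 12 VMH libraries, at 71.3 RPKM against 23.4 to 50.1 in the other 11, beside 1070 to 1480 RPKM in the fed ARC, and what this contributed was not tested.

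All 4 fasted DMH libraries of Pnoc lay above the fed mean (3.52 ± 1.72 to 5.71 ± 2.54 RPKM, log2 difference 0.57, SE 0.46, adjusted p = 1.0), and all 5 fasted PVN libraries lay below it (2.67 ± 1.80 to 1.39 ± 0.555 RPKM, -0.51, SE 0.41, adjusted p = 1.0). Neither difference passed, fed and fasted libraries overlapped in both nuclei, and the interaction test gave an adjusted p of 1.0. Depth was on average higher in fasted than in fed DMH libraries, and with depth as a covariate the DMH difference was 0.69 (adjusted p = 1.0).

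Oprm1 (ENSMUSG00000000766, chr10:6758506-7038198, plus strand), the mu receptor gene, was lowest in the VMH. The fed VMH libraries ranged from 1.26 to 2.53 RPKM (median 2.16), below all 5 ARC libraries (5.97, 4.75, 3.80, 6.52 and 5.91 RPKM), all 5 DMH libraries (7.99, 5.20, 6.28, 5.61 and 4.05 RPKM) and all 6 PVN libraries (2.88 to 6.80 RPKM, median 4.03). The fed DMH mean of 5.83 ± 1.46 RPKM (SD, n = 5) was 2.94 times the VMH mean of 1.98 ± 0.527 RPKM (SD, n = 6), a log2 difference of 1.19 (SE 0.19, adjusted p = 6.37e-05). The order DMH, ARC, PVN and VMH held in both states.

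The step from PVN to VMH was the only one between neighbours that passed, in fed mice (0.81, SE 0.19, adjusted p = 0.00276) and in fasted mice (0.55, SE 0.19, adjusted p = 0.0845). The fasted call was lost in 7 of 11 fits without 1 library (PVN-Fast 1, 3 or 4 or VMH-Fast 1, 2, 4 or 5), with the highest adjusted p, 0.381, without PVN-Fast 1, which held 7.0 RPKM against 2.10, 3.71, 4.36 and 2.86 RPKM in the other 4. PVN-Fast 1 also had the highest sum of ARC markers of the 5, at 104 against 41.2 to 49.3 RPKM, and what this contributed was not tested. With fasting the log2 differences of Oprm1 lay between -0.12 in the PVN and 0.14 in the VMH (SE 0.19 to 0.22), and the groups overlapped in all 4 nuclei.

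**Figure D5:**
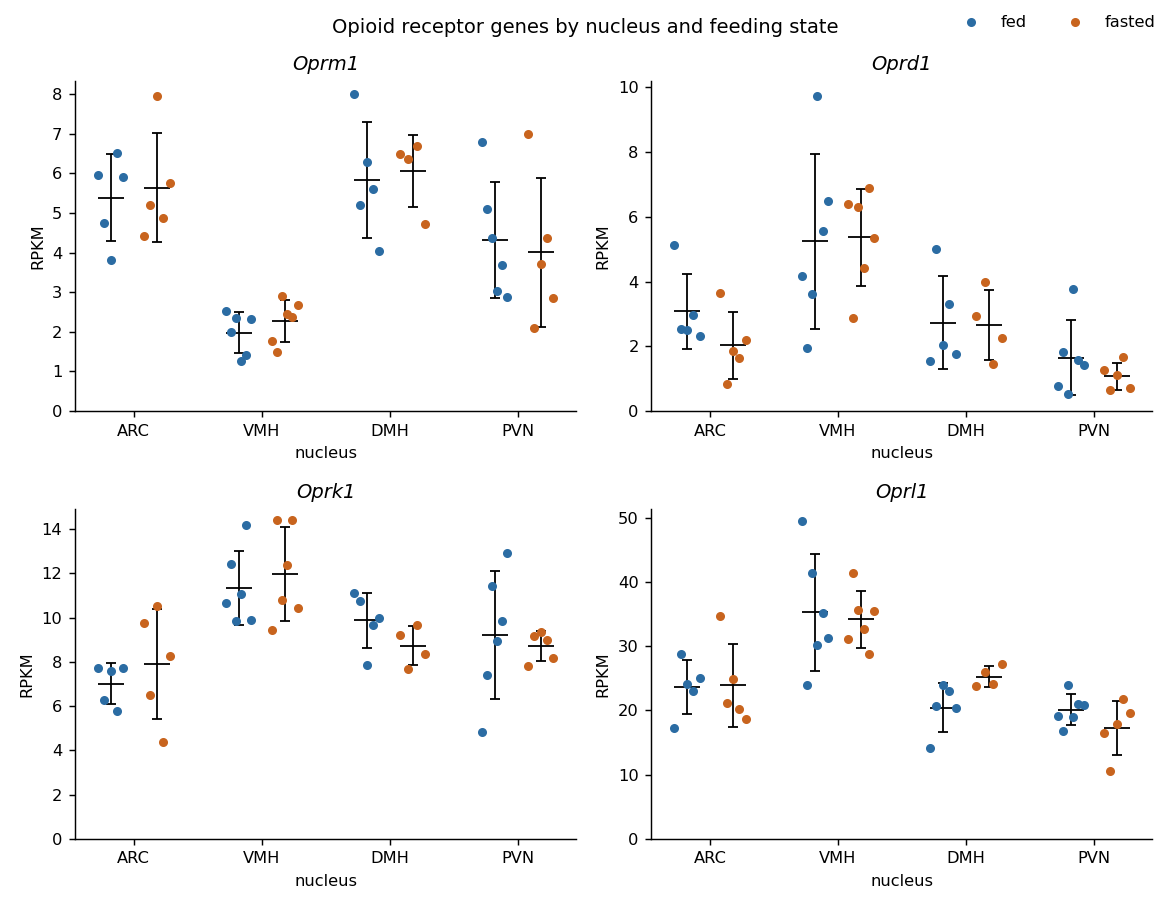
RPKM of the 4 receptor genes in each library of the 4 nuclei, fed in blue and fasted in orange, with the group mean and SD in black (4 to 6 libraries per group, linear axes). Oprm1 is lowest in the VMH, where its 12 libraries lie between 1.26 and 2.89 RPKM, and Oprd1, Oprk1 and Oprl1 have their highest means there.

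Oprd1 (ENSMUSG00000050511, chr4:132110726-132144486, minus strand), the delta receptor gene, was highest in the VMH and lowest in the PVN in both states. The fed VMH libraries ranged from 1.95 to 9.73 RPKM (median 4.87) and the fed PVN libraries from 0.543 to 3.78 RPKM (median 1.49). The means of 5.25 ± 2.70 and 1.65 ± 1.15 RPKM (SD, both n = 6) differed by 1.22 on the log2 scale (SE 0.28, adjusted p = 0.00235), although single libraries overlapped. In fasted mice the VMH (2.89 to 6.90 RPKM, median 5.81) lay above every PVN library (1.28, 0.645, 1.1, 1.66 and 0.716 RPKM), a difference of 1.60 (SE 0.29, adjusted p = 0.000155).

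The ARC and DMH lay between these, and no neighbours in either order of Oprd1 passed (lowest adjusted p = 0.215). Oprd1 had the lowest fasted to fed ratios of the receptors in the ARC, 0.66 (3.08 ± 1.16 to 2.03 ± 1.03 RPKM, log2 difference -0.46, SE 0.30, adjusted p = 0.875), and in the PVN, 0.656 (adjusted p = 1.0). Neither passed the test, and fed and fasted libraries overlapped in both nuclei. In the ARC the 5 fed libraries held 5.11, 2.52, 2.51, 2.95 and 2.32 RPKM and the 5 fasted ones 3.64, 0.826, 1.85, 1.65 and 2.21 RPKM.

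Oprk1 (ENSMUSG00000025905, chr1:5588466-5606131, plus strand), the kappa receptor gene and thus the main receptor of the Pdyn products, had the flattest profile of the 4 receptors. Group means ran from 7.01 ± 0.93 RPKM in the fed ARC (SD, n = 5) to 12 ± 2.11 RPKM in the fasted VMH (SD, n = 6), and the order VMH, DMH, PVN and ARC was the same in both states. The VMH exceeded the ARC in fed mice (11.3 ± 1.68 against 7.01 ± 0.93 RPKM, 0.62, SE 0.17, adjusted p = 0.0146) and in fasted mice (0.58, SE 0.17, adjusted p = 0.0232), while no neighbours passed. The F test of Oprk1 lost its call without ARC-Fed 2 or 4 or VMH-Fed 2 or 5 in fed mice (adjusted p up to 0.162) and without ARC-Fast 2 or 4, PVN-Fast 1 or VMH-Fast 2, 4 or 5 in fasted mice (up to 0.212). The 6 fed VMH libraries (9.84 to 14.2 RPKM, median 10.9) lay above the 5 fed ARC libraries (7.70, 6.26, 7.57, 5.76 and 7.74 RPKM).

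In the PVN, where Pdyn fell, Oprk1 was 9.22 ± 2.89 RPKM in fed (SD, n = 6) and 8.70 ± 0.667 RPKM in fasted libraries (SD, n = 5), a log2 difference of -0.02 (SE 0.17, adjusted p = 1.0). The fasted PVN libraries (7.82, 9.18, 9.35, 8.98 and 8.18 RPKM) all lay within the range of the fed ones (4.82 to 12.9 RPKM). No nucleus showed a difference in Oprk1 above 0.16 in size, at an SE of 0.16 to 0.18.

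Oprl1 (ENSMUSG00000027584, chr2:181715016-181720985, plus strand), the nociceptin receptor gene, was the most abundant receptor transcript, and its mean was highest in the VMH. The fed VMH libraries ranged from 23.9 to 49.4 RPKM (median 33.2), against 17.2, 28.7, 24.1, 23.1 and 25.1 RPKM in the ARC, 14.2, 20.6, 23.9, 23.0 and 20.3 RPKM in the DMH and 16.8 to 23.9 RPKM in the PVN (median 19.9). The VMH mean of 35.2 ± 9.05 RPKM (SD, n = 6) exceeded that of the ARC (23.6 ± 4.18, n = 5, adjusted p = 0.0434), the DMH (20.4 ± 3.81, n = 5, adjusted p = 0.00399) and the PVN (20.1 ± 2.40, n = 6, adjusted p = 0.00108), with log2 differences of 0.54, 0.74 and 0.75. Single fed libraries of these nuclei overlapped. The call against the ARC was lost without ARC-Fed 1 (adjusted p = 0.182), VMH-Fed 1 or VMH-Fed 3.

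In fasted mice the VMH libraries of Oprl1 (28.7 to 41.5 RPKM, median 34.0) stood above every PVN library (16.5, 10.5, 17.8, 21.8 and 19.5 RPKM), a difference of 0.97 (SE 0.17, adjusted p = 6.76e-05). Fasted DMH libraries held 23.7, 25.9, 24.1 and 27.2 RPKM, all above the fed DMH mean. The log2 difference was 0.31 (SE 0.18, adjusted p = 0.927), and the two-sided exact permutation test gave p = 0.0317, the only exact p under 0.05 among the 27 tests other than Pdyn in the PVN. Libraries of the 2 states overlapped. Fasted DMH libraries were on average deeper than fed ones, and with depth as a covariate the log2 difference was 0.27 (adjusted p = 1.0). Batches were also uneven, as batch 1 held no fasted DMH library and 1 fed library, at 14.2 RPKM the lowest of its group. Within batches 2 and 3, with 2 libraries of each state, the log2 differences were 0.15 and 0.23.

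Read across genes, the differences in the PVN leaned one way. All 7 lay below 0 in the PVN, with a median of -0.24. Of all genes 46.6% lay below 0 there, 39.3% above 0 and the rest at 0, with a median of 0.00. However, 3 of the 7 turned sign under some settings. Penk sat at -0.003 and turned to 0.008 with batch as a covariate, and Oprm1 turned to 0.003 with array weights. Without 1 PVN library the differences reached 0.076 for Penk, 0.035 for Oprm1 and 0.076 for Oprk1. In the ARC 4 of 7 lay below 0 (median 0.00), beside 35.5% of all genes. In the VMH and DMH 5 of 7 lay above 0 (medians 0.08 and 0.07), beside 39.0% and 43.1% of all genes. Of the 7 in the PVN, Pdyn alone passed the test.

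Genes that act with the opioid peptides and receptors were counted in lists of peptide processing, degradation, coupling and regulation. These lists hold 43 genes, and all were tested. They were chosen with earlier results of these data known, so the shares below describe the lists and do not test the pathway as a whole. With fasting 1 of 43 passed in the VMH and 0 of 43 in the ARC, DMH and PVN, whereas 7, 7, 2 and 3 reached an unadjusted limma p under 0.05 in the ARC, VMH, DMH and PVN. These are 16.3%, 16.3%, 4.65% and 6.98% of the lists, beside 7.5%, 7.31%, 6.48% and 5.53% of all genes. Between nuclei 23 of 43 (53.5%) passed in fed and 21 of 43 (48.8%) in fasted mice, against the 12.4% and 11.9% of all genes given above. The interaction test called 0 of 43, with 4 (9.3%) at an unadjusted p under 0.05, beside 4.39% of all genes.

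The gene that passed was Rgs4, which encodes a protein that speeds the switching off of inhibitory G proteins. In the VMH it fell from 46.5 ± 5.02 (41.7 to 53.0) in fed to 31.2 ± 5.22 RPKM (24.8 to 37.7) in fasted mice (SD, both n = 6), with no overlap (log2 change -0.57, SE 0.12, adjusted p = 0.0705). The call was lost with array weights, with batch as a covariate, with the VMH fitted alone and in 7 of 12 fits without 1 library (without VMH-Fast 1, 3 or 4 or VMH-Fed 1, 2, 3 or 4), where adjusted p ranged from 0.0516 to 0.165 over the 12. In the PVN Rgs4 was 76.2 ± 7.14 in fed (SD, n = 6) and 55.9 ± 8.5 RPKM in fasted libraries (SD, n = 5), which did not overlap but did not pass (-0.45, SE 0.13, adjusted p = 0.381).

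Of the genes listed for the processing of precursors into peptides, 7 of 7 differed between nuclei in fed and 6 of 7 in fasted mice (all but Scg5). Pcsk1, which encodes a prohormone convertase, had fed means of 39.7 ± 8.57 RPKM in the PVN (SD, n = 6), 18.5 ± 6.37 in the ARC (n = 5), 9.36 ± 1.96 in the DMH (n = 5) and 8.71 ± 2.91 in the VMH (n = 6). Pcsk2, a convertase that also cleaves these precursors, was instead lowest in the ARC, at 17.2 ± 0.645 RPKM (SD, n = 5) against 39.8 ± 5.55 in the PVN and 38.3 ± 3.22 in the VMH (both n = 6). Cpe, the carboxypeptidase that trims the cut peptides, and Ctsl, a protease able to process proenkephalin, were highest in the PVN (745 ± 40.2 and 105 ± 8.94 RPKM, n = 6). None of the 7 passed with fasting in any nucleus, where the widest difference was 0.32 (Pcsk1n in the ARC, adjusted p = 0.603). Exons of Ctsl overlap those of Gm47123 and Gm49230 over 26.8% of their length.

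Of the 7 peptide-degrading enzymes, 3 differed between nuclei in fed mice (Ece1, Ece2 and Dpp3) and 3 in fasted mice (Ece1, Ece2 and Ace). Ece1, the endothelin-converting enzyme, was 54.6 ± 4.50 RPKM in the fed PVN (SD, n = 6), 53.9 ± 13.1 in the ARC (n = 5) and 20.3 ± 3.84 in the VMH (n = 6). Exons of Ece2 overlap those of Gm49333 over 57.5% of their length, those of Ace overlap Gm11651 over 5.6%, and reads of these genes cannot be told apart there. With fasting 0 of 7 passed. Mme, which encodes neprilysin, an enzyme that inactivates enkephalins, was 3.89 ± 2.99 in the fed and 0.664 ± 0.218 RPKM in the fasted ARC (SD, both n = 5, log2 difference -1.30, SE 0.43, adjusted p = 0.474). Dpp3, another enzyme that cleaves enkephalins, was 3.79 ± 1.71 in the fed (n = 5) and 8.0 ± 2.84 RPKM in the fasted DMH (n = 4), without overlap (0.95, SE 0.31, adjusted p = 0.500), in the nucleus where mean depth differed most with state.

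Downstream of the receptors, 3 of 5 inhibitory G protein alpha subunits (Gnai1, Gnai2 and Gnao1) differed between nuclei in each state. Gnai1 was highest in the ARC and lowest in the PVN, with fed means of 170 ± 18.5 (SD, n = 5) and 79.9 ± 11.3 RPKM (SD, n = 6). Of 6 channel genes the 2 that passed in both states, Kcnj3 and Kcnj5, encode subunits of potassium channels that open on receptor activation. Both were highest in the VMH, where Kcnj3 was 26.5 ± 5.24 and Kcnj5 12.6 ± 2.93 RPKM in fed mice (SD, n = 6), against 7.38 ± 2.09 and 3.42 ± 2.01 RPKM in the PVN (SD, n = 6). Exons of Kcnj3 overlap those of Gm26794 over 31.1% of their length. No G protein or channel gene passed with fasting in any nucleus.

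Of 9 receptor and G protein regulators, 5 differed between nuclei in fed mice (Arrb1, Grk3, Rgs4, Rgs7 and Rgs9) and 3 in fasted mice (Arrb1, Rgs4 and Rgs9). Arrb1, which encodes an arrestin that uncouples active receptors, was highest in the VMH (18.9 ± 4.07 RPKM, n = 6) and lowest in the ARC (9.51 ± 1.19 RPKM, n = 5) of fed mice. Of the 4 adenylyl cyclases, the enzymes that make cyclic AMP, Adcy5 and Adcy8 passed in both states. Adcy8 was 15.4 ± 5.45 RPKM in the fed PVN (n = 6) and 4.58 ± 2.88 RPKM in the fed ARC (n = 5), and Adcy5 was highest in the VMH (27.3 ± 2.31 RPKM, n = 6).

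Among 5 other opioid-related genes, Pomc, the precursor of beta-endorphin and of melanocortins, passed between nuclei in both states and Ackr3, an atypical receptor that binds opioid peptides, in fasted mice. Pomc held 518 ± 79.2 RPKM in the fed ARC (SD, n = 5), compared with 19.4 ± 5.71 or less in the fed means of the other nuclei. Fasted ARC held 365 ± 70.7 RPKM (n = 5), a log2 difference of -0.51 that did not pass (SE 0.30, adjusted p = 0.770). In the DMH Pomc was 10.5 ± 4.36 in fed (n = 5) and 4.38 ± 0.894 RPKM in fasted libraries (n = 4, -1.0, SE 0.31, adjusted p = 0.440).

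The genes whose values were most like each member were sought by Pearson's r of log2(RPKM + 1) over the 42 libraries, among 22980 genes. Because the libraries fall into 8 groups and 3 batches and differ in depth, these r values describe shared differences between nuclei as well as between libraries, and they carry no test. For Penk the leading genes were Ebf3, a transcription factor gene (r = 0.872), Ubash3b (0.852) and Grin3a, a glutamate receptor subunit gene (0.851). Ebf3 ran from a fed mean of 0.377 RPKM in the ARC to 48.8 RPKM in the PVN, the order of Penk at a far wider range.

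For Oprm1 they were Marcksl1 (0.852), Gal, which encodes the peptide galanin (0.850), and Slc32a1, the vesicular transporter that marks GABA and glycine neurons (0.845). Gal and Slc32a1 shared with Oprm1 the low VMH, at fed means of 9.24 and 2.44 RPKM, and the high DMH, at 210 and 43.6 RPKM. The other 3 receptors resembled genes that were high in the VMH. Oprl1 was closest to Doc2b (0.817), Gpr26 (0.810) and Camkv (0.795), Oprd1 to Tenm2 (0.789), Mmp17 (0.778) and Opcml (0.776), and Oprk1 to Pfn2 (0.742), Tppp (0.706) and Glra1, a glycine receptor subunit gene (0.705). Glra1 had a fed mean of 40.2 RPKM in the VMH and 3.66 RPKM in the ARC.

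Pdyn had no close counterpart, with Pycrl (0.514), Ccar2 (0.510) and Rpsa (0.504) in front. Pnoc was closest to Tac2, which encodes neurokinin B (0.704), and to Dcn (0.688) and Lum (0.678), which encode extracellular matrix proteoglycans. The fed means of Tac2 were 106 RPKM in the ARC and 50.5 RPKM in the DMH but 3.94 in the VMH and 2.17 in the PVN. Library VMH-Fed 1, the highest fed VMH library for Pnoc, was also the highest of its group for Tac2, at 12.2 RPKM against 1.39 to 3.22 RPKM, and for Dcn, at 15.1 RPKM against 0.78 to 5.58 RPKM. ARC-Fed 1, the highest ARC library for Pnoc, held 183 RPKM of Tac2 and 25.1 RPKM of Dcn, but ARC-Fed 3, the lowest fed ARC library for Pnoc at 2.63 RPKM, held 29.6 RPKM of Dcn.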

How the data were processed

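RNA from 42 laser-captured nuclei was amplified with a kit that does not keep strand and sequenced as single-end reads. Per the labels and the paper, the authors aligned reads to GRCm38 (CASAVA 1.7, TopHat2 2.0.11 and Cufflinks 2.2.1 are in the submitters' notes), left out outlying libraries and used edgeR and limma. The deposited values are RPKM for 37907 gene identifiers (35965 with a symbol); no value is 0. Recurring values of genes without reads (5241 genes in every library) show an added count averaging 5 reads and removed batch means, from which batch and depth were estimated. Differences were fitted with limma 3.58.1 (R 4.3.3) on log2(RPKM + 1) with 8 group means over 33579 genes of at least 1 RPKM in at least 4 libraries, called at an adjusted p under 0.1. Single values had two-sided exact permutation tests (scipy 1.17.1). The paper describes the libraries of a group as biological replicates, but the labels do not tie libraries to mice. Same-numbered fed and fasted libraries did not deviate together (20 pairs, correlations of -0.124 to 0.054), so numbers were not treated as pairs. Positions and sequences are from GENCODE M21. Named genes were the members, the pathway genes past the threshold or with the widest differences of their list, and the 3 genes most like each member. Other pathway genes that are named passed the test between nuclei. The members and lists were chosen with earlier results of these data known. Kiss1, a listed ARC marker, was not analysed here. The fit and the recovery of batches were tested on simulated data.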

Additional observations from a re-analysis of the deposited data

Results flagged for a closer look

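In 6 of the 56 combinations of gene and group 1 library lay far from the others of its group. The rule took the gap to the nearest other library as a share of the group's range, on RPKM without logs. About 2.8 would be flagged by chance if values within groups were normally distributed, which was not tested. Pnoc accounted for 4 of the 6, a gene with a median of 18.7 estimated reads. Library ARC-Fast 1 held 1.79 RPKM of Pnoc against 6.32 to 7.12 RPKM in the other 4 fasted ARC libraries, VMH-Fed 1 held 10.7 RPKM against 0.564 to 1.64 RPKM, DMH-Fed 2 held 6.55 RPKM against 2.56 to 3.28 RPKM, and PVN-Fast 4 held 2.38 RPKM against 1.07 to 1.23 RPKM. For Oprm1, library DMH-Fast 4 held 4.72 RPKM, below the 6.37 to 6.68 RPKM of the other 3. For Oprd1, library ARC-Fed 1 held 5.11 RPKM, above the 2.32 to 2.95 RPKM of the other 4.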

How the results depend on the processing

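Other pseudocounts (0.1 RPKM or none), other or no filters, library medians centred, no intensity trend, array weights, batch or depth as a covariate and the replicate block left the count of members called with fasting at 0 in the ARC, VMH and DMH and at 1 in the PVN. With each nucleus fitted on its own libraries the PVN count was 0, and over the fits without 1 library it ranged from 0 to 1. Calls of single genes changed under some settings, and the cause was not tested. Pdyn between nuclei of fed mice lost its call with batch (adjusted p = 0.113) or depth (0.133) as a covariate and without the filter (0.106). Pnoc between nuclei of fed mice gained it with array weights (0.0262), without a pseudocount (0.0922) and with 0.1 RPKM (0.0967). It also passed without ARC-Fed 2 or 3, PVN-Fed 3 or VMH-Fed 1 (adjusted p of 0.00526 to 0.374 over the 22 fits without 1 library). Rgs4 in the VMH lost it with array weights (0.119), batch (0.104) and the nucleus alone (0.531). Penk, Oprm1, Oprd1 and Oprl1 between nuclei passed in each fit tried.

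The replicate numbers did not pair the libraries (0 of 20 correlations over 0.1). With the replicate block the members called between nuclei were 5 in fed and 6 in fasted mice, against 6 and 7 without it, since Pdyn in fed (adjusted p = 0.134) and Oprk1 in fasted mice (0.145) lost their calls, as did Pdyn between PVN and DMH of fed mice (0.103) and Rgs4 in the VMH (0.107). The block turned the sign of Oprd1 in the DMH (-0.002).

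Differences near 0 that had not passed turned sign in places. Array weights gave -0.114 for Oprd1 in the DMH, -0.018 for Oprk1, -0.051 for Pdyn and 0.047 for Pnoc in the ARC, and 0.003 for Oprm1 in the PVN. Batch as a covariate gave -0.024 for Oprd1 in the DMH and 0.008 for Penk in the PVN, and depth gave -0.072 for Oprd1 in the DMH. Without 1 library the ranges were -0.053 to 0.12 (Pdyn), -0.266 to 0.08 (Penk), -0.386 to 0.149 (Pnoc), -0.063 to 0.118 (Oprm1) and -0.139 to 0.078 (Oprl1) in the ARC, -0.141 to 0.108 (Penk), -0.129 to 0.492 (Pnoc), -0.091 to 0.282 (Oprd1) and -0.118 to 0.086 (Oprl1) in the VMH, -0.107 to 0.054 (Pdyn), -0.036 to 0.172 (Oprm1) and -0.165 to 0.191 (Oprd1) in the DMH, and -0.149 to 0.076 (Penk), -0.308 to 0.035 (Oprm1) and -0.176 to 0.076 (Oprk1) in the PVN.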
